A study of Mus musculus with 4 samples.

Results

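The mitosis genes examined here are 39 protein-coding genes whose products drive a cell from entry into mitosis to the separation of its daughters. They were taken by name from a list of cell cycle regulators, spindle and kinetochore proteins and chromosome proteins. The rule did not use their measured values, but earlier results of these data were known when they were chosen. The mRNA table lists FPKM (fragments per kilobase of transcript, scaled to the mapped fragments of the library) for 75959 transcripts of 21878 genes. All 39 genes were found in it, as 120 transcripts, and the transcripts of each gene were summed. All 39 also passed the limit on low values, an average of 0.1 FPKM or more across all 4 libraries, which left 13199 genes for testing.

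The cells were C3H10T1/2, a mouse mesenchymal stem cell line that can turn into muscle, fat, bone or cartilage cells. There were 2 untreated samples (replicates 1 and 2) and 2 samples treated with 5-AZA (replicates 101 and 102). 5-AZA is 5-azacytidine, a cytidine analogue that is built into nucleic acids and blocks DNA methyltransferases. The labels give 20 µM for 72 hours, followed by 21 days in fresh growth medium, and they list no culture time for the untreated samples, so treatment and time in culture cannot be told apart. Whole cultures of 1 cell line were sampled, and the study describes the replicates as biological repeats. The labels do not say how far their cultures were kept apart, so p-values measure the spread between these samples.

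Entry into mitosis is driven by cyclin-dependent kinase 1 bound to A and B cyclins. Chromosomes are then condensed and attached to the spindle through kinetochores, and a checkpoint holds back the anaphase-promoting complex until every chromosome is attached. Most genes of this program are transcribed in G2 and M phase, so that their mRNA is found mainly in dividing cells, and muscle cells leave the cell cycle for good when they fuse into myotubes. The comparison asked which of these genes differed between the treated cultures and the untreated line.

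Myotube markers were far higher in both treated libraries, where the summed level of 10 myotube markers was 814 and 1248 FPKM against 1.63 and 1.30 FPKM in the untreated libraries, with 10 of 10 markers called higher. Myod1 was listed at 0 in both untreated libraries. The sum of 6 adipocyte markers was 45.3 and 30.1 FPKM in the untreated and 1094 and 1504 FPKM in the 5-AZA libraries, with 5 of 6 called higher. Immune markers summed to 1.169 and 1.502 FPKM in the untreated and 2.69 and 3.90 FPKM in the 5-AZA libraries. Of 6 such markers 2 could be tested, Cd68 and Cd79a, and both were called higher. Cd68 was at 1.16 and 1.47 FPKM untreated and 2.27 and 3.69 FPKM treated. Cd79a, barely above the limit on low values, was listed at 0 in both untreated libraries and at 0.288 and 0.159 FPKM after 5-AZA. Ptprc and Csf1r fell below that limit, and Adgre1 and Cd3e were listed at 0 in all 4 libraries. The part of these cell types in the results below was not tested. Mesenchymal markers summed to 3936 and 4004 FPKM in the untreated and 3261 and 3549 FPKM in the 5-AZA libraries, a sum of which Vim was the largest part (2268 and 2406 FPKM untreated, 1178 and 1380 FPKM treated). Of the 10 tested, 7 had a higher fitted value, with a median log2 fold change of 0.52, and Thy1 alone was called, from 0.578 and 0.785 FPKM to 10.4 and 14.2 FPKM. Nt5e was listed at 0 in both untreated libraries, although Nt5e and Thy1 are commonly used to define mesenchymal stem cells.

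All 39 mitosis genes were expressed at 1 FPKM or more in every sample of both groups. Their summed level was 540 FPKM in untreated replicate 1, 416 FPKM in untreated replicate 2, 428 FPKM in 5-AZA replicate 101 and 416 FPKM in 5-AZA replicate 102. These sums were 0.157%, 0.124%, 0.130% and 0.115% of all FPKM in the same libraries. The 2 treated cultures therefore lay close to untreated replicate 2, and untreated replicate 1 stood above the other 3 samples. By mean over the 4 samples, Top2a was the highest of the 39, at the 92.0th percentile of the genes tested, and Cdc25c was the lowest, at the 33.0th percentile. In bulk cultures such as these, fewer dividing cells and less mRNA per dividing cell cannot be told apart.

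**Figure D1:**
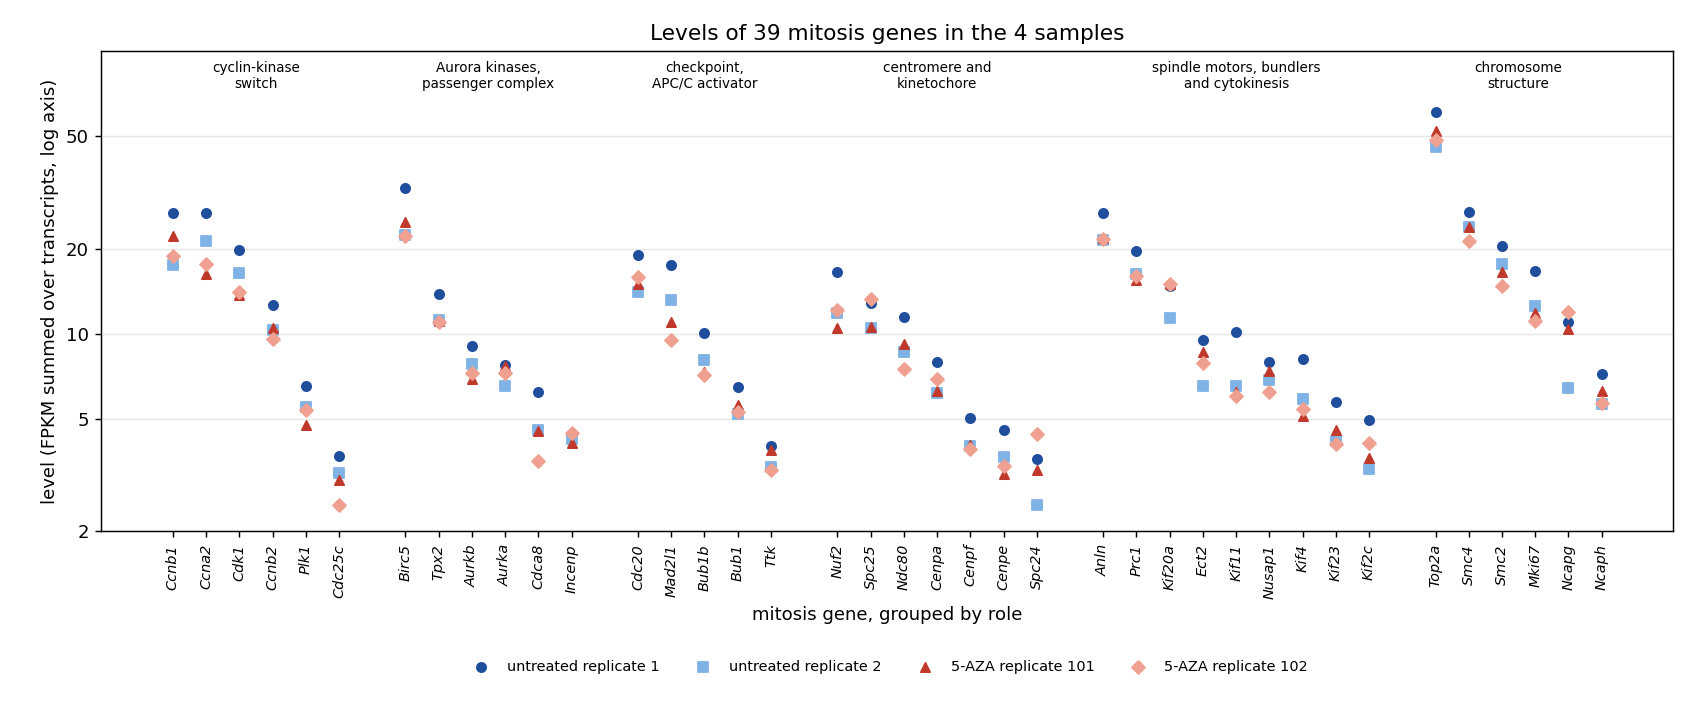
Level of each of the 39 mitosis genes in FPKM on a log axis, with 1 point for each of the 4 samples and the genes arranged by role. Every point lies above 2 FPKM, and the point of untreated replicate 1 lies above that of untreated replicate 2 for all 39 genes.

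None of the 39 genes was called. A gene was called when limma gave an adjusted p under 0.05 (Benjamini-Hochberg over the 13199 genes) together with a change of over 2-fold, and by this rule 13.1% of all genes tested were called higher and 1.32% lower. Of the 39 genes, 3 were lower and 0 higher at an unadjusted p under 0.05, against 11.1% and 24.4% of all genes. With the adjusted p alone and no limit on the fold change, Ccna2 and Mad2l1 were lower and none was higher, against 5.93% and 18.6% of all genes. The 95% interval of the fold change lay inside 2-fold in either direction for 39 of 39 genes, compared with 69.9% of all genes tested, and inside 1.5-fold for 22 of the 39. All genes tested include many of lower level than the 39, which lay at the 33.0th percentile or above. The part of level in this contrast was not tested. The fitted value was lower by over 1.5-fold for 0 of the 39 genes, compared with 5.32% of all genes. The outermost limits of these intervals were -0.93 for Mad2l1 and 0.92 for Ncapg on the log2 scale.

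The direction of the small differences was uneven. The fitted log2 value was lower after 5-AZA for 33 of the 39 genes (84.6%), whereas it was lower for 44.8% of all genes tested. The median log2 fold change was -0.18 over the 39 genes and 0.05 over all genes. Both treated samples lay below both untreated samples for 15 of the 39 genes, against a background of 25.4%, and above them for Kif20a alone, against 36.8%.

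**Figure D2:**
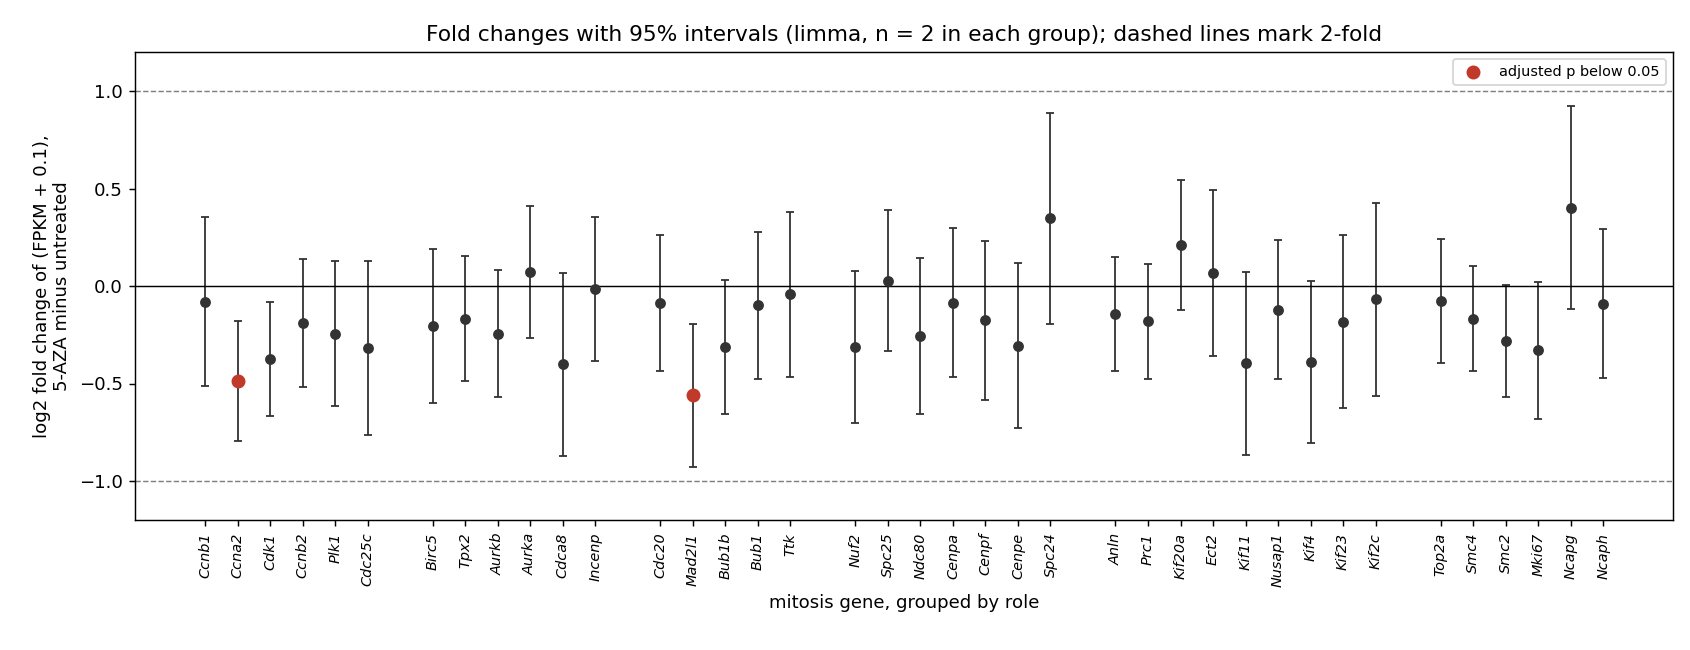
Log2 fold change (5-AZA minus untreated) of each of the 39 genes with its 95% interval from limma, arranged by role, with red for an adjusted p under 0.05 (Ccna2 and Mad2l1). All 39 intervals lie between -1 and 1, which is 2-fold either way, and those of Ccna2, Mad2l1 and Cdk1 lie below 0.

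The size of this difference depended on single samples, among them untreated replicate 1. That sample exceeded untreated replicate 2 for 39 of 39 genes, whereas 63.5% of all genes tested were higher in it. The median log2 difference between the untreated replicates was 0.33 over the 39 genes and 0.06 over all genes, and the ratio ran from 1.03 for Incenp to 1.71 for Ncapg. Between the 5-AZA replicates, replicate 101 was the higher for 24 of 39 genes, with a median log2 difference of 0.05. Against untreated replicate 1, 38 genes were lower in 5-AZA replicate 101 and 34 in replicate 102, with median log2 differences of -0.32 and -0.34, while 54.5% and 40.8% of all genes were lower, with medians of -0.05 and 0.09. Against untreated replicate 2, 17 of the 39 genes were lower in replicate 101 and 23 in replicate 102, with medians of 0.02 and -0.03, while 48.3% and 33.8% of all genes were lower, with medians of 0.01 and 0.16. Without untreated replicate 1, the fit gave 21 of the 39 genes lower with a median of -0.01, against 40.1% of all genes and a median of 0.09. The difference between these medians (39 genes minus all genes) was then -0.10 on the log2 scale, compared with -0.22 in the fit of all 4 samples. Omission of 5-AZA replicate 102 gave nearly the same value, -0.11. It was -0.32 without 5-AZA replicate 101 and -0.36 without untreated replicate 2. Without untreated replicate 2, 36 of the 39 genes were lower with a median of -0.34, against 47.8% of all genes and a median of 0.02. The sum of the 6 adipocyte markers was also higher in untreated replicate 1 than in replicate 2 (45.3 and 30.1 FPKM). Of these markers 5 were higher in replicate 1, with Fabp4 at 22.9 and 9.66 FPKM, while Pparg was lower (13.8 and 15.9 FPKM). The part of these markers in the result was not tested.

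**Figure D3:**
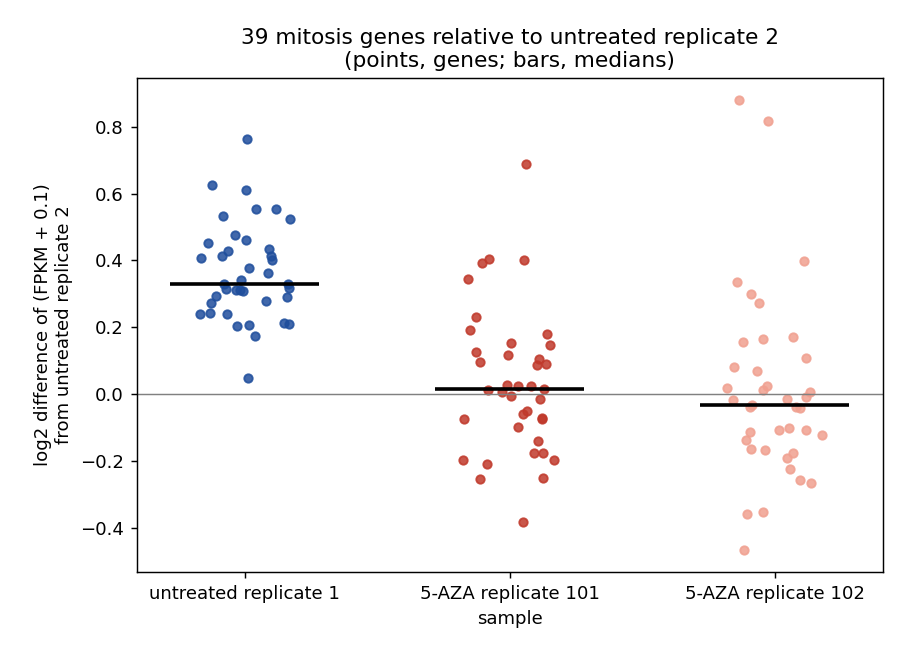
Log2 ratio of each of the 39 genes in untreated replicate 1 and in both 5-AZA samples, relative to untreated replicate 2. The points of untreated replicate 1 lie above 0 for all 39 genes with a median of 0.33, while the medians of 5-AZA replicates 101 and 102 are 0.02 and -0.03.

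Many genes of this program carry a cell cycle genes homology region (CHR), a short element bound by the DREAM and MuvB complexes, often with CCAAT boxes bound by NF-Y further from the start. Promoters of 300 bases, from 250 before to 50 after the start, were taken from RefSeq (GRCm38.p6), where 31 of the 39 genes were matched by 33 windows. The CHR letters TTTGAA were present on either strand in 23 of the 31 genes, that is in 75.8% of their windows and in 17.9% of all 32851 windows of the same length. The variant TTTAAA was present in 9 of the 31 genes, in 27.3% of their windows against 13.2% of all. The box CCAAT was present in 23 of the 31 genes, in 75.8% of their windows against 37.4%, and both TTTGAA and CCAAT were found in 20 genes, in 66.7% of windows against 6.95%. Each motif was searched separately, so that overlapping matches counted for both. In 4 genes (Mad2l1, Ncaph, Nuf2 and Nusap1) no window held any of these letters.

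The 120 bases before the start are printed for 4 genes of high level that carry the elements, and for Mad2l1, whose level differed most and which has none of them. These 4 do not stand for all matched genes. Birc5 and Anln, of higher mean level than Cdk1 and Cdc20, held no CCAAT box. Birc5 had only the variant, 220 bases before the start. The TTTGAA letters of Anln, Aurka, Cdca8, Plk1 and Spc25 lay only after the start. Capitals mark the CHR, its variant and the CCAAT box on either strand. A CHR on the other strand appears as TTCAAA, and a box on the other strand appears as ATTGG. The sequences run 5′ to 3′ on the strand of the gene, with coordinates of GRCm38.p6. They are Top2a on the minus strand at chr11:99024190-99024309, Cdk1 on the minus strand at chr10:69352913-69353032, Cdc20 on the minus strand at chr4:118437344-118437463, Ccnb1 on the minus strand at chr13:100786487-100786606 and Mad2l1 on the plus strand at chr6:66535101-66535220.
Top2a: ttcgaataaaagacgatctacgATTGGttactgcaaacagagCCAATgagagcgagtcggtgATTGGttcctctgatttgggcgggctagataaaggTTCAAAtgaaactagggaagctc
Cdk1: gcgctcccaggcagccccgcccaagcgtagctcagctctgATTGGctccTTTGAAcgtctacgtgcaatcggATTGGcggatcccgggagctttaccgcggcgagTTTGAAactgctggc
Cdc20: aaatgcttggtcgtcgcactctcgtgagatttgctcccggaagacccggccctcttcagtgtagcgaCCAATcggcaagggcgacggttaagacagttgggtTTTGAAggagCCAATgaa
Ccnb1: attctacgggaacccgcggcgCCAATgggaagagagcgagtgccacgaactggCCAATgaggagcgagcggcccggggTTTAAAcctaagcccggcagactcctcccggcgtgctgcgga
Mad2l1: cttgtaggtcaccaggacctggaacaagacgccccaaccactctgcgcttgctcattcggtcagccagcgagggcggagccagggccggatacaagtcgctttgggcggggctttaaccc

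Within the printed bases of Top2a, a CHR stood 23 bases before the start, with CCAAT boxes 58, 78 and 98 bases before it. Further upstream its window held another CHR at 179 bases and boxes at 149, 189 and 227 bases. Within the printed bases, Cdk1 held CHR letters 15 and 71 bases before the start and CCAAT boxes at 48 and 80 bases. In Cdc20 the CHR was at 18 bases and the boxes were at 8 and 53 bases, and in Ccnb1 the variant was at 42 bases and the boxes were at 67 and 99 bases. Among the 4 genes without these letters the log2 fold change was -0.56 for Mad2l1, -0.31 for Nuf2, -0.12 for Nusap1 and -0.09 for Ncaph, and no test was made of motif against level.

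The kinase switch that starts mitosis comprised 6 genes, of which 6 had a lower fitted value after 5-AZA (median log2 fold change -0.28). Both treated samples were below both untreated samples for 4 of them, against 25.4% of all genes tested. Ccna2 encodes cyclin A2, which acts from S phase into early mitosis. Its level was 26.7 and 21.2 FPKM in untreated replicates 1 and 2 and 16.2 and 17.6 FPKM in 5-AZA replicates 101 and 102. The groups did not overlap, and Ccna2 fell by 0.49 on the log2 scale (SE 0.13, adjusted p = 0.029, limma with Benjamini-Hochberg adjustment), short of 2-fold. Its mean after treatment was 70.7% of the untreated mean. Omission of 1 sample gave Ccna2 log2 fold changes from -0.65 to -0.33. Its adjusted p did not stay under 0.05 under every alternative tried. Cdk1, the catalytic partner of the mitotic cyclins, was at 19.8 and 16.4 FPKM untreated and 13.7 and 14.0 FPKM after 5-AZA, without overlap, a log2 fold change of -0.37 (SE 0.13) with an unadjusted p of 0.018 and an adjusted p of 0.067 by limma.

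Ccnb1, which encodes cyclin B1 and was the most abundant of these 6 by mean FPKM, showed no such separation. It was at 26.7 and 17.4 FPKM in the untreated samples and at 22.2 and 18.8 FPKM in the treated samples. Both treated values lay between the untreated ones, and the log2 fold change was -0.08 (SE 0.19, adjusted p = 0.814, limma). Cyclin B1 mRNA made up 67.8% and 62.8% of the summed B cyclin level (Ccnb1 and Ccnb2) in the untreated samples and 67.9% and 66.3% in the treated samples. Ccnb2 (the other B cyclin), Plk1 (polo-like kinase 1) and Cdc25c (a phosphatase that activates Cdk1) had log2 fold changes between -0.32 and -0.19, none of which passed the test.

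The Aurora kinases and the chromosomal passenger complex comprised 6 genes, 5 with a lower and 1 with a higher fitted value (median log2 fold change -0.19). The passenger complex corrects faulty attachments and later helps to divide the cell. Birc5, encoding its small subunit survivin, was the most abundant by mean FPKM, at 32.8 and 22.3 FPKM untreated and 24.8 and 22.2 FPKM after 5-AZA. Untreated replicate 1 was the one high sample, the other 3 lay within a narrow range, and the log2 fold change was -0.20 (SE 0.17, adjusted p = 0.450, limma). Cdca8, encoding borealin of the same complex, was at 6.22 and 4.58 FPKM untreated and 4.53 and 3.56 FPKM treated. Its groups just failed to overlap, with a log2 fold change of -0.40 (SE 0.20) and an adjusted p of 0.203 by limma.

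The proportions of the 4 passenger complex mRNAs overlapped between the groups except for Cdca8. Birc5 supplied 62.5% and 57.2% of the summed FPKM of Birc5, Aurkb, Incenp and Cdca8 in the untreated samples and 61.5% and 59.2% in the treated samples, and Aurkb, the kinase, supplied 17.3% and 20.1% against 17.1% and 19.4%. Cdca8 supplied 11.9% and 11.7% in the untreated samples and 11.2% and 9.50% in the treated samples, without overlap. Incenp, the scaffold subunit, had the smallest difference among the 39 genes (log2 fold change -0.01). Aurka, the centrosomal Aurora kinase, had a log2 fold change of 0.07, and its activator Tpx2 one of -0.17, neither passing the test.

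Of the 5 genes of the spindle checkpoint and its target Cdc20, 5 had a lower fitted value, with a median log2 fold change of -0.10. Mad2l1 encodes Mad2, which sequesters Cdc20 while chromosomes are unattached. It was at 17.4 and 13.2 FPKM in the untreated samples and at 11.0 and 9.52 FPKM in the treated samples. The groups did not overlap, and Mad2l1 had the largest fall among the 39 genes, by 0.56 on the log2 scale (SE 0.16, adjusted p = 0.034, limma), to 67.1% of the untreated mean. Omission of 1 sample gave Mad2l1 log2 fold changes from -0.76 to -0.36. Its adjusted p, too, did not stay under 0.05 under every alternative tried. Cdc20, the activator of the anaphase-promoting complex and the most abundant of the 5 by mean FPKM, was at 19.0 and 14.1 FPKM untreated and 15.0 and 15.9 FPKM treated. Its treated values lay between the untreated ones (log2 fold change -0.09, SE 0.15, adjusted p = 0.742, limma). The checkpoint kinases Bub1 and Ttk had log2 fold changes of -0.10 and -0.04, and Bub1b (BubR1) one of -0.31, none passing the test.

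The 7 centromere and kinetochore genes included 5 with a lower and 2 with a higher fitted value, with a median log2 fold change of -0.18. The Ndc80 complex, which binds the spindle microtubules, is built from the products of Ndc80, Nuf2, Spc24 and Spc25. Nuf2 was the most abundant of the 7 by mean FPKM, at 16.6 and 11.9 FPKM untreated and 10.5 and 12.1 FPKM treated, and its groups overlapped (log2 fold change -0.31, SE 0.17, adjusted p = 0.233, limma). Spc24 was among the few genes with a higher fitted value, at 3.60 and 2.47 FPKM untreated and 3.30 and 4.44 FPKM treated. These groups also overlapped, and the log2 fold change of 0.35 (SE 0.24) did not pass the test (adjusted p = 0.343, limma).

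The share of Spc24 in the summed FPKM of the 4 Ndc80 complex genes was 8.09% and 7.40% in the untreated samples and 9.82% and 11.9% in the treated samples, while that of Nuf2 was 37.2% and 35.5% against 31.3% and 32.4%. Neither pair of shares overlapped between the groups, and with 2 samples against 2 an exact two-sided permutation test cannot give a p below 0.333. Cenpa, the centromeric histone H3 variant, had a log2 fold change of -0.09. Cenpe, a kinetochore motor, and Cenpf, a large kinetochore protein, had log2 fold changes of -0.31 and -0.18. None of the 3 passed the test.

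The spindle motors, microtubule bundlers and cytokinesis proteins comprised 9 genes, 7 with a lower and 2 with a higher fitted value (median log2 fold change -0.14). Anln, encoding the contractile ring scaffold anillin, was the most abundant by mean FPKM, at 26.8 and 21.5 FPKM untreated and 21.9 and 21.6 FPKM treated. Apart from untreated replicate 1 its samples were nearly level (log2 fold change -0.14, SE 0.13, adjusted p = 0.476, limma). Kif20a, a kinesin of the central spindle, was at 14.8 and 11.3 FPKM untreated and 15.02 and 14.96 FPKM treated. It was the only gene of the 39 whose treated values both exceeded both untreated values, by a small margin over untreated replicate 1, and its log2 fold change was 0.21 (SE 0.15, adjusted p = 0.346, limma).

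Kif11, the kinesin that pushes the spindle poles apart, and Kif4, a chromosome-bound kinesin, had log2 fold changes of -0.40 and -0.39 without overlap between the groups. Kif11 was at 10.1 and 6.52 FPKM untreated and 6.25 and 6.04 FPKM treated, so that untreated replicate 1 was its one high sample. Omission of 1 sample gave Kif11 log2 fold changes from -0.71 to -0.084. Prc1, which bundles the microtubules of the central spindle, was also lower in both treated samples (log2 fold change -0.18). Ect2, an activator of the contractile ring, Nusap1, Kif23 and Kif2c had overlapping groups and log2 fold changes between -0.18 and 0.07. No gene of these 7 passed the test.

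The 6 chromosome structure genes had 5 lower fitted values and 1 higher, with a median log2 fold change of -0.13. Top2a, encoding the topoisomerase that untangles sister DNA, was at 61.1 and 45.8 FPKM untreated and 51.9 and 48.5 FPKM treated. Both treated values fell between the untreated ones (log2 fold change -0.08, SE 0.14, adjusted p = 0.751, limma). Ncapg, a regulatory subunit of condensin I, had the largest positive fitted value of the 39 genes. It was at 11.0 and 6.43 FPKM untreated and 10.4 and 11.9 FPKM treated, so that untreated replicate 2 was the one low sample and the groups overlapped. Its log2 fold change was 0.40 (SE 0.23, adjusted p = 0.251, limma), and without untreated replicate 1 it was 0.78 with an adjusted p of 0.00746, the only one of the 39 genes that then passed the adjusted p in either direction.

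Ncapg supplied 16.8% and 12.0% of the summed FPKM of the 4 condensin genes (Ncapg, Ncaph, Smc2 and Smc4) in the untreated samples and 18.3% and 22.2% in the treated samples, while Smc2 supplied 31.3% and 33.0% against 28.9% and 27.5%. Smc2 and Smc4 encode the ATPase core of condensin and had log2 fold changes of -0.28 and -0.17. Mki67, the proliferation marker Ki-67 that coats mitotic chromosomes, was at 16.7 and 12.5 FPKM untreated and 11.9 and 11.1 FPKM treated. Its groups did not overlap, and its log2 fold change of -0.33 (SE 0.15) did not pass the test (adjusted p = 0.164, limma). Ncaph had a log2 fold change of -0.09.

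Other genes of mitosis were counted in 5 further lists of 118 tested genes. By limma 0 of them were called lower and 2 higher, against 1.32% and 13.1% of all genes tested. The fitted value was lower for 85 of the 118, and 106 of the 118 were higher in untreated replicate 1 than in replicate 2. The median log2 fold change was -0.14, and on omission of 1 sample it ran from -0.22 to 0.0059. Of the 118, 14 were lower and 2 higher at an unadjusted p under 0.05, against 11.1% and 24.4% of all genes tested. Among 20 other entry and exit regulators, 16 had a lower fitted value and 0 were called. The one with the smallest p was Cdc25b, a phosphatase that activates Cdk complexes at mitotic entry, at 10.1 and 9.18 FPKM untreated and 6.08 FPKM in both treated samples, with a log2 fold change of -0.66 (SE 0.14) and an adjusted p of 0.0082 by limma.

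Among 33 other kinetochore and checkpoint genes, 21 had a lower fitted value, with a median log2 fold change of -0.07, and 0 were called. Casc5, encoding the kinetochore scaffold Knl1, had the smallest p, at 5.50 and 4.24 FPKM untreated and 3.06 and 3.49 FPKM treated (log2 fold change -0.55, adjusted p = 0.0705, limma). Among 25 other spindle and cytokinesis genes, 20 had a lower fitted value and 0 were called. Kif18a, a kinesin that dampens chromosome oscillation, was at 8.51 and 6.50 FPKM untreated and 4.19 and 3.60 FPKM treated, with a log2 fold change of -0.92 and an adjusted p of 0.0064 by limma, just short of 2-fold. Among 17 other cohesin and condensin genes, 13 had a lower fitted value and 0 were called. The cohesin subunit Stag2 had the smallest p there, at 46.3 and 43.7 FPKM untreated and 37.2 and 36.1 FPKM treated (log2 fold change -0.29, adjusted p = 0.0587, limma).

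Regulators of G2/M transcription were the list that held both called genes, 2 of 23 called higher, against 13.1% of all genes tested. Of its 23 genes, 15 had a lower fitted value. E2f6, a repressive member of the E2F family, was at 4.99 and 3.69 FPKM untreated and 11.6 and 12.0 FPKM treated and rose by 1.43 on the log2 scale (SE 0.17, adjusted p = 3.83e-04, limma). E2f2, an activating member, was at 0.276 and 0.114 FPKM untreated and 0.701 and 0.838 FPKM treated and rose by 1.61 (SE 0.37, adjusted p = 0.0128, limma), on the scale of log2(FPKM + 0.1), at a low level. Foxm1 and Mybl2, activators of late cell cycle genes that were named after their values were seen, had log2 fold changes of -0.01 and -0.36, neither passing the test.

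A wider set came from the GO term cell division that the authors list beside the genes, with 372 genes, of which 31 are among the 39. Of the other 341 genes 320 were tested, with 195 lower and 125 higher fitted values and a median log2 fold change of -0.07. Here 0 were called lower and 10 higher, against 1.32% and 13.1% of all genes tested. By the adjusted p of limma without a limit on the fold change, 22 were lower and 21 higher, against 5.93% and 18.6%. The small lower median was therefore also present in this set, smaller in size than for the 39 genes. The difference between the sets was not tested. With the genes of all other lists in this report also left out, 256 genes were tested and the median was -0.066. Untreated replicate 1 exceeded replicate 2 for 248 of the 320 genes, against 63.5% of all genes tested. Omission of 1 sample gave the set of 320 medians from -0.13 to -0.0057.

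**Figure D4:**
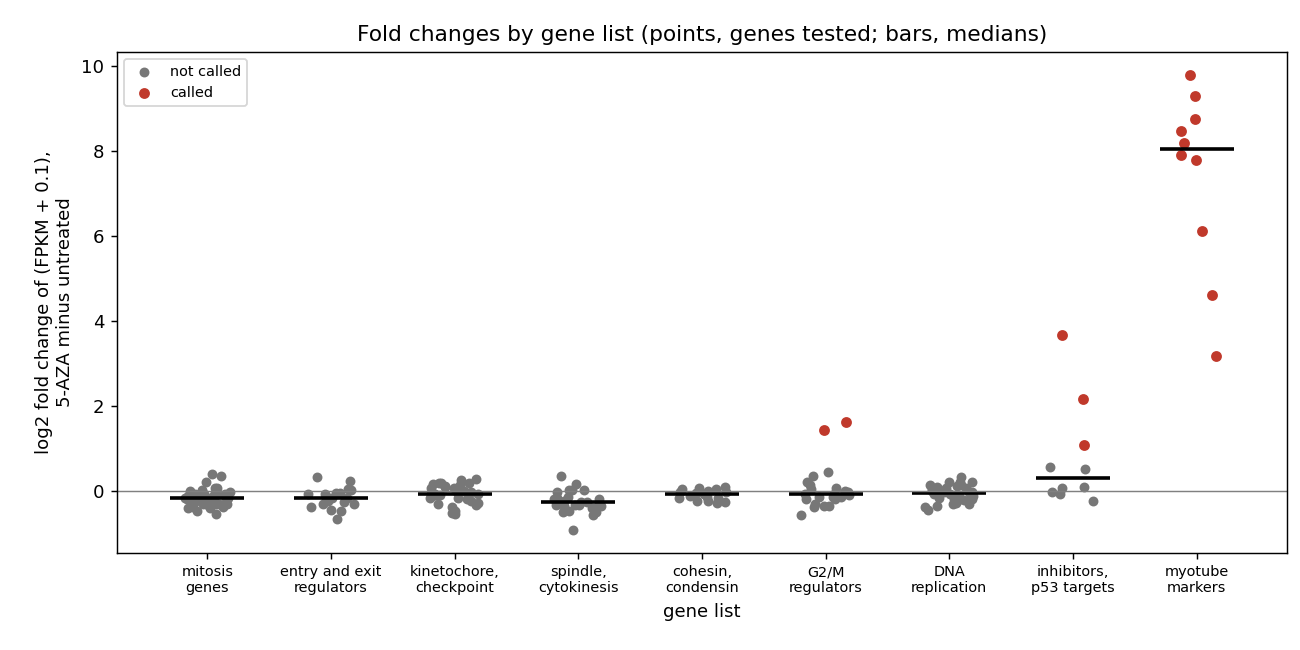
Log2 fold change (5-AZA minus untreated) of every tested gene in the mitosis genes and in the other gene lists, with 1 point a gene, red for called genes, and a bar at the median of each list. Myotube markers, at the right, are all red. The medians are -0.18 for the 39 mitosis genes, -0.05 for DNA replication genes and 0.30 for cell cycle inhibitors and p53 targets.

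DNA replication genes and cell cycle inhibitors served as the nearest lists for comparison. Of 32 DNA replication genes 0 were called in either direction by limma. At an unadjusted p under 0.05, 4 were lower and 0 higher, against 11.1% and 24.4% of all genes tested. The fitted value was lower for 20 of the 32, and their median log2 fold change was -0.05. On omission of 1 sample this median ran from -0.25 to 0.081. Untreated replicate 1 exceeded replicate 2 for 30 of these 32. Tk1, the S-phase thymidine kinase, had the smallest p, at 26.2 and 22.7 FPKM untreated and 19.1 and 16.8 FPKM treated, with a log2 fold change of -0.45 and an adjusted p of 0.0303 by limma.

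Of 12 cell cycle inhibitors and p53 targets, 10 could be tested and 3 were called higher, against 13.1% of all genes tested. Their median log2 fold change was 0.30. Cdkn1a, encoding the Cdk inhibitor p21, was at 16.0 and 15.1 FPKM untreated and 29.0 and 37.1 FPKM treated (log2 fold change 1.07, adjusted p = 5.25e-04, limma). Gadd45a, a stress-induced gene whose product can restrain Cdk1, was at 5.20 and 4.04 FPKM untreated and 18.1 and 24.0 FPKM treated (log2 fold change 2.16, adjusted p = 4.6e-05, limma). Cdkn1c, encoding the Cdk inhibitor p57, was at 0.0159 FPKM in untreated replicate 1, listed at 0 in replicate 2, and at 0.902 and 1.74 FPKM in the treated samples. Cdkn2a and Cdkn2b were listed at 0 in all 4 samples. The fitted values of the list did not all go in 1 direction, with 7 higher and 3 lower. By the adjusted p of limma without a limit on the fold change, 5 were higher and 0 lower. The shares of all genes tested were 18.6% and 5.93%. Besides the called genes, these were Mdm2 (log2 fold change 0.51, adjusted p = 0.0113, limma) and Ccng1 (0.55, adjusted p = 0.00314, limma). Cdkn1b, encoding the Cdk inhibitor p27 and named after its values were seen, was at 47.0 and 47.6 FPKM untreated and 40.0 and 40.5 FPKM treated, with a log2 fold change of -0.23 and an adjusted p of 0.113 by limma.

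Single transcripts were examined to see whether sums hid opposite movements. Of the 120 transcripts of the 39 genes, 107 passed the limit on low values and 0 were called by limma, against a background of 2.1% of 35557 transcripts called higher and 0.262% lower. By unadjusted p (under 0.05), 4 of the 107 were lower and 2 higher, and the share of all transcripts at this limit was not counted. For Spc24, the share of XM_011242588.2 in the gene's mean FPKM went from 30.9% to 57.7%, with 1.04 and 0.834 FPKM untreated and 1.78 and 2.68 FPKM treated (log2 fold change 1.15, adjusted p = 0.246, limma). The other Spc24 transcript, NM_026282.5, was at 2.56 and 1.64 FPKM untreated and 1.51 and 1.76 FPKM treated, so the higher sum of Spc24 came from the predicted transcript. For Ttk, NM_001110265.1 went from 30.0% to 5.84% of the gene's mean level, with 0.657 and 1.56 FPKM untreated and 0.208 and 0.211 FPKM treated. For Ect2, NM_007900.3 went from 7.37% to 20.2%, with 0.770 and 0.410 FPKM untreated and 1.96 and 1.38 FPKM treated. Neither of these transcripts passed the adjusted test (adjusted p = 0.246 for Ttk and 0.261 for Ect2, limma). The overlap of transcripts within a gene makes the division of reads among them uncertain. Of the 2 transcripts of Mad2l1, XM_006506406.3 was at 11.8 and 9.19 FPKM untreated and 7.998 and 5.858 FPKM treated, and NM_019499.4 was at 5.64 and 3.99 FPKM untreated and 3.05 and 3.66 FPKM treated. Both had a lower fitted value, and neither passed the adjusted test.

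Circular RNAs (circRNAs), made by back-splicing of exons, gave a second readout of the same genes in RPM (reads scaled to the size of the library). Of 4295 circRNAs, 15 had 1 of the 39 genes as host, from 12 host genes. The highest value among these was 0.0749 RPM, and 14 of the 15 were listed above 0 in a single sample. Each untreated sample had 5 of the 15 above 0 and each 5-AZA sample had 3. How many of all 4295 circRNAs each sample held above 0 was not counted, so these numbers have no background. The exception was circRNA_2681 of Smc4, at 0.0323 and 0.0749 RPM in the untreated samples and listed at 0 in both treated samples. By limma on log2(RPM + 0.0213) its adjusted p was 0.191 over the 1360 circRNAs tested, of which 0 were called (0% as background) and 251 had an unadjusted p under 0.05. At these levels no difference in circRNAs of mitosis genes was detectable.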

How the data were processed

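RNA of C3H10T1/2 cells was depleted of ribosomal RNA and made into stranded libraries by the authors. They deposited FPKM values per RefSeq transcript, and RPM values per circRNA. The submitters' processing notes name Trimmomatic, HISAT2, Bowtie2 2.2.9, eXpress 1.5.1 and mm9, without roles. Since 15 of 15 circRNA positions lay inside the GRCm38 genes, no coordinates of the deposited tables are printed. FPKM holds no read counts, so the depth behind each value is unknown, DESeq as in the study's methods could not be used, and 2 samples a group limit precision.

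Transcripts were summed per gene in R 4.3.3 with the data.table package (1.17.8). Log2(FPKM + 0.1) was fitted with limma 3.58.1 (lmFit, eBayes with trend) for genes with a mean of at least 0.1 FPKM, in all 4 samples, with Benjamini-Hochberg adjustment and fold changes on that scale, which understates changes of low genes. The script was tested on simulated data.

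Members and lists were chosen with earlier results of these data known. Values in every sample are given for the 3 members with the most negative and the 3 with the most positive change and the most abundant member of each of the 6 role groups. They are also given for up to 3 called genes per list and direction, otherwise the gene with the smallest p. Cdk1, Mki67, Foxm1, Mybl2, Cdkn1b and the transcripts, and the complexes whose shares are given, were chosen after their values were seen. Other pseudocounts, limits, scalings, and the omission of each sample were tried. The lncRNA table was not used.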

Additional observations from a re-analysis of the deposited data

How the results depend on the processing

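With the rule of over 2-fold and an adjusted p under 0.05, 0 of the 39 mitosis genes were called under each of the alternatives tried, apart from 2 lower without a limit on the fold change. The number lower by adjusted p alone (2) was 0 with no limit on low values, 0 with eBayes without trend, 0 with NM_ transcripts only, 6 after centring on the median and 4 after quantile normalization. Omission of 1 sample gave 0 to 3 lower, 0 to 1 higher and 21 to 36 lower fitted values, and the lowest came without untreated replicate 1. Among all genes, calls lower and higher (174 and 1724) were 86 and 875 with a pseudocount of 1 FPKM and 886 and 1041 after quantile normalization, which took the share of calls that were higher from 90.8% to 54.0% and the median of all genes from 0.05 to -0.12. Calls lower were 83 with no limit on low values and 783 without a fold limit, and calls higher were 845 with a mean of at least 1 FPKM. Omission of 1 sample gave 52 to 184 lower and 733 to 1617 higher. In the other mitosis lists 1 was called higher with a pseudocount of 1 FPKM, with no limit on low values, with a mean of at least 1 FPKM, after quantile normalization and with NM_ transcripts only, and 1, 4 and 4 were called lower after median centring, quantile normalization and without a fold limit, with 0 to 1 lower and 0 to 2 higher on omission of 1 sample. In the cell division set, calls higher were 5 with a pseudocount of 1 FPKM, 2 with a mean of at least 1 FPKM and 21 without a fold limit, and calls lower were 1 after scaling to the same sum, 2 after centring, 8 after quantile normalization and 22 without a fold limit, with 0 to 1 lower and 5 to 9 higher on omission of 1 sample. Without a fold limit, 1 DNA replication gene was lower and 5 inhibitors were higher, and omission of 1 sample left 1 to 3 inhibitors. The cause of these changes was not tested, beyond the genes or samples each alternative removes.

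Of the 39 genes, 22 kept their direction under every alternative. Centring and quantile normalization turned Aurka (-0.035 and -0.026), Spc25 (-0.080 and -0.048) and Ect2 (-0.041 and -0.030), and NM_ transcripts only turned Incenp (0.41), Nuf2 (0.18) and Spc24 (-0.31). Omission of 1 sample gave log2 fold changes from -0.38 to 0.23 for Ccnb1, -0.48 to 0.073 for Birc5, -0.048 to 0.19 for Aurka, -0.074 to 0.046 for Incenp, -0.30 to 0.13 for Cdc20, -0.25 to 0.058 for Bub1, -0.16 to 0.079 for Ttk, -0.13 to 0.19 for Spc25, -0.27 to 0.10 for Cenpa, -0.30 to 0.015 for Anln, -0.20 to 0.33 for Ect2, -0.41 to 0.044 for Kif23, -0.35 to 0.21 for Kif2c, -0.28 to 0.13 for Top2a and -0.26 to 0.079 for Ncaph, and 12 of these turned without untreated replicate 1. A lone sample was assumed to vary like the other group. No paired analysis was possible because the groups share no replicate numbers. The count test on circRNA reads was not run.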
